A study of Mus musculus with 7 samples.

Results

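The genes described here are 10 neuronal regulators of the microtubule skeleton and the growing neurite. They comprise the stathmins Stmn1, Stmn2, Stmn3 and Stmn4, the doublecortin family members Dcx and Dclk1, the microtubule-associated proteins Map1b, Map2 and Mapt, and the growth cone protein Gap43. They were chosen by name, and every probe set annotated to 1 of these genes alone was followed, apart from 1 Stmn3 probe set with _x in its name. All of the remaining 31 probe sets reached a level of 50 on at least 1 array, so none was lost to the filter on low values. They are 31 of the 22748 probe sets tested, and the 10 genes are 10 of 12315 genes with a tested probe set.

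RNA came from primary cortical neurons of C57/Bl6J mouse embryos at day 16 of gestation, grown for 16 days in vitro and hybridised to Affymetrix Mouse 430_2 arrays, 1 sample per array. In the luciferase group (n = 4) the neurons carried a lentivirus whose hairpin is directed against luciferase, a firefly enzyme that mouse cells lack, and which also encodes a green fluorescent protein. The shRNA treatment of this group lasted 2 weeks. In the blank group (n = 3) no virus was given according to the treatment label (naïve) and the methods, although the description of these samples, worded alike for both groups, mentions an shRNA treatment. The comparison addresses what exposure to the virus and a hairpin without a mouse target does to the neurons, and it cannot tell virus, hairpin and fluorescent protein apart, since every luciferase sample received all of them. The cultures came from whole cortical tissue and the RNA is that of all cells in a culture, so fewer cells of a type and less RNA per cell cannot be told apart. Separate litters are not named for the samples, and the p-values therefore reflect the spread of these arrays alone, part of which may be technical.

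Microtubules are polymers of tubulin that grow and shrink at their ends, and neurons rely on them to build axons and dendrites. Stathmins bind free tubulin and promote microtubule disassembly until phosphorylation switches them off, whereas microtubule-associated proteins (MAPs) coat the polymer and stabilise it, with tau (Mapt) best known in axons and Map2 in dendrites. Doublecortin (Dcx) and its kinase relative Dclk1 stabilise microtubules in migrating and extending neurons, Map1b is abundant in growing axons, and Gap43 is a membrane protein of the growth cone.

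Across the 7 arrays the median level of the tested probe sets lay between 215.52 and 241.4 on the linear RMA scale, and blank 7 had the lowest mean correlation with the other arrays of its group (r = 0.989, against 0.992 to 0.995 for the others). The luciferase and blank arrays differed widely. Of all tested probe sets 24.5% passed the test (limma, adjusted p of at most 0.05), 16.2% as higher and 8.26% as lower in luciferase neurons, and 4.19% were also changed at least 1.5-fold. Of those that passed, 66.24% were higher, a share that was 56.82% without the filter on level, 49.07% after quantile normalization and 37.34% under median centring of each array. Neuron markers were abundant in both groups, with a summed level over 14 genes of 66320 to 67750 in luciferase arrays and 64360 to 65610 in blank arrays, and 0 of the 14 passed in limma in either direction (1 higher and 1 lower at an unadjusted p under 0.05). Astrocyte markers differed: 8 of 13 passed in limma as higher and 0 as lower (13 and 0 at an unadjusted p under 0.05), their sum was 35200 to 37840 against 27100 to 29550, and Gfap, the astrocyte intermediate filament, was at 900.37 to 1099.6 against 345.35 to 485.5. The microglial marker Aif1 and the endothelial marker Cldn5 stayed under 50 on every array, but other genes of their lists did not: 2 of 12 microglial genes (Csf1r and Cd68) reached 50, neither passed, and their list summed to 308.6 to 346.8 in luciferase and 344.6 to 447.5 in blank arrays. Of 7 vascular and meningeal genes that reached 50, 1 passed as higher (Pdgfrb) and 3 as lower (Flt1, Col1a2 and Dcn), genes named here after their values were seen, and the list summed to 744.5 to 942.0 in luciferase and 1195 to 1309 in blank arrays. Col1a2 reached 50 in blank arrays only (50.96 to 61.37, against 36.66 to 48.48 in luciferase arrays). The filter on level thus admitted it through the group in which it reads higher. The part of these cell types in the results was not tested. The proliferation marker Mki67 was at 268.67 to 461.59 against 243.76 to 309.54, and the neuronal nuclear marker Rbfox3 was at 4857 to 5715 against 3884 to 5056.

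In luciferase neurons Stmn4 and 1 probe set of Dcx fell, 1 probe set each of Map2 and Mapt and 2 of Dclk1 rose, and Stmn1, Stmn2, Stmn3, Map1b and Gap43 had no probe set past the test. All 31 changes were under 1.5-fold. The largest was 1.39-fold, on a dim Map2 probe set that reached 50 in luciferase arrays only. In limma 0 of the 31 probe sets combined an adjusted p of at most 0.05 with a 1.5-fold change, beside 4.19% of all tested. The count was also 0 in each of the 15 alternatives run. An unadjusted limma p under 0.05 was found for 12 of the 31. Altogether 6 of the 31 passed (19.35%, beside 24.5% of all tested), 4 as higher (12.9% beside 16.2%) and 2 as lower (6.452% beside 8.26%). None of these shares exceeded that of the whole array. The groups did not overlap for 9 of the 31 (29.03%), beside 34.8% of all tested probe sets. The median log2 change, luciferase minus blank, was 0.12 over the 31 and 0.06 over all tested. The median size of the log2 change, with its sign left aside, was 0.21 over the 31 and 0.17 over all tested. By this measure the 31 did not change less than the array as a whole. By gene, each on its probe set with the highest mean, the signed median was 0.0015 over the 10 genes and 0.06 over all 12315 genes. For 25 of the 31 the 95% interval of the change lay wholly inside 1.5-fold in either direction, and for the other 6 it reached beyond.

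**Figure D1:**
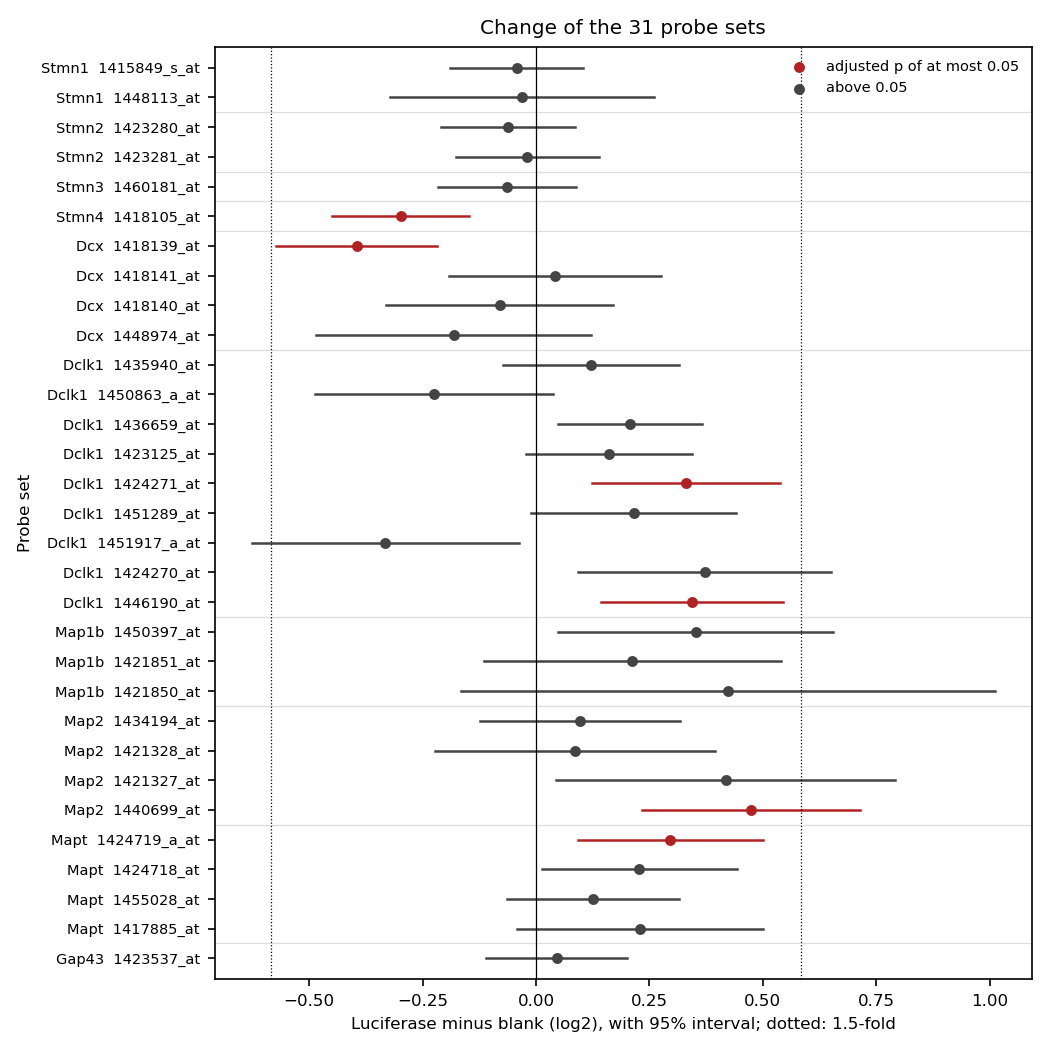
Log2 change (luciferase, n = 4, minus blank, n = 3) on the x axis with its 95% interval from limma for each of the 31 probe sets on the y axis, grouped by gene and highest mean level first. Red marks the 6 with an adjusted p of at most 0.05, and dotted lines mark 1.5-fold: the intervals of Stmn1, Stmn2, Stmn3 and Gap43 span 0 and lie inside the lines, and the points of Map1b, Map2 and Mapt all lie above 0.

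Among the stathmins, only Stmn4 (also called RB3, a membrane-anchored stathmin of neurons) passed. Its single probe set, 1418105_at, read 7717, 7949, 7688 and 7838 in luciferase arrays 1 to 4 and 9584, 9206 and 9979 in blank arrays 5 to 7. All luciferase arrays lay below the lowest blank array, and the 4 luciferase values were closer to each other (SD 119.7) than the 3 blank values were (SD 386). The mean was 7798 ± 119.7 (SD, n = 4) against 9589 ± 386 (SD, n = 3), or 81.4% of the blank level. On the log2 scale Stmn4 changed by -0.30 (SE 0.067, 95% interval -0.45 to -0.15, limma adjusted p = 0.014), and a two-sided exact permutation test over the 35 splits of the arrays gave p = 0.029, the smallest it allows. The call held in all 15 limma alternatives, with limma adjusted p between 0.00045 and 0.047.

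The other stathmins stayed close to the blank level. Stmn1, the ubiquitous member (stathmin itself, or Op18), read 15522, 15084, 15581 and 15195 against 15455, 16189 and 15782 on its probe set with the highest mean, 1415849_s_at. Stmn2, or SCG10, a stathmin of growth cones and a common marker of axonal regrowth, read 11625, 11856, 11625 and 11453 against 11730, 12307 and 12403 on 1423280_at. Stmn3, or SCLIP, read 5982, 5832, 5582 and 5585 against 5992, 5896 and 6122 on 1460181_at.

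For all of them the groups overlapped. The log2 change was -0.04 for this Stmn1 probe set (95% interval -0.19 to 0.10, limma adjusted p = 0.66), -0.06 for Stmn2 (-0.21 to 0.09, limma adjusted p = 0.52) and -0.06 for Stmn3 (-0.22 to 0.09, limma adjusted p = 0.51), so that a change of 1.5-fold lies outside each interval. The further probe sets of Stmn1 (1448113_at, -0.03, interval -0.32 to 0.26) and Stmn2 (1423281_at, -0.02, interval -0.18 to 0.14) gave values as small, and their sign turned when single arrays were left out. The Stmn1 probe set 1448113_at turned without luciferase 3 or 4 or blank 7, up to 0.05, and the Stmn2 one without luciferase 3 or blank 5, up to 0.01. Probe sets ending in _s_at can match transcripts of other genes, which holds for the first Stmn1 probe set.

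**Figure D2:**
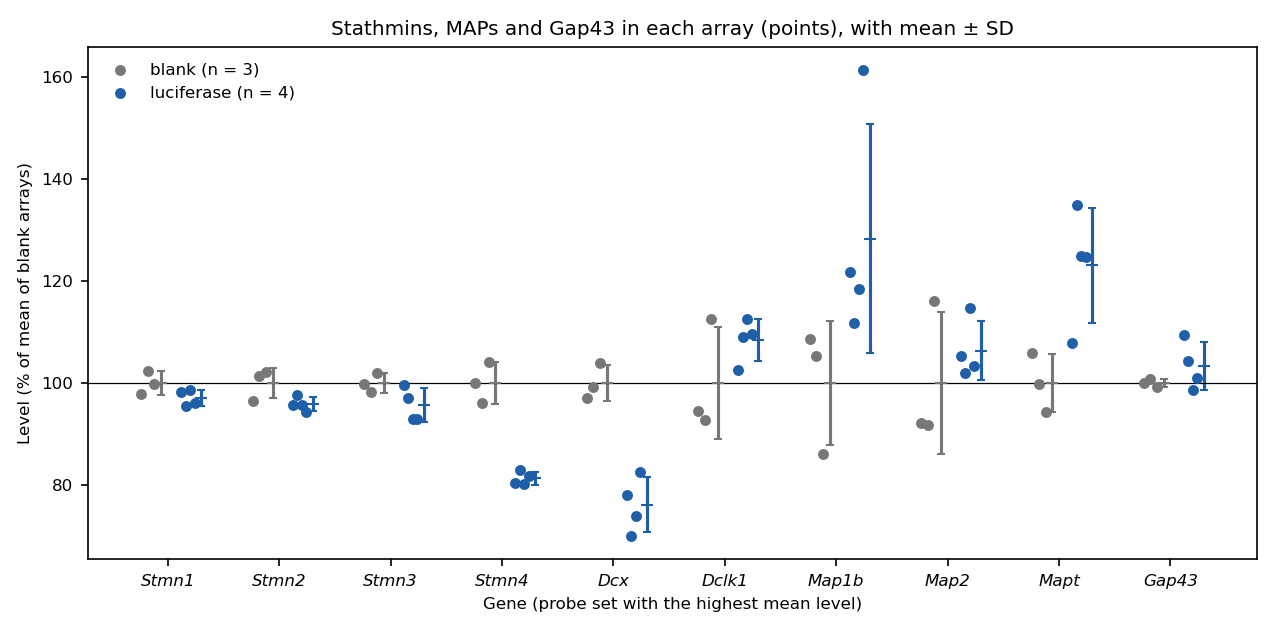
Level of each gene's probe set with the highest mean level, relative to the blank mean (percent, 3 arrays) on the y axis (points are arrays, grey for blank and blue for luciferase, bars are mean ± SD). The luciferase points of Stmn4 and Dcx lie below all blank points and those of Mapt and Map1b above them, while for Dclk1 and Map2 1 blank array, blank 7, lies level with or above the highest luciferase point.

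Dcx gave different values on its 4 probe sets. On 1418139_at, the probe set with the highest mean, luciferase arrays 1 to 4 read 1146, 1029, 1085 and 1213 and blank arrays 5 to 7 read 1424, 1456 and 1525. All luciferase arrays lay below all blank arrays, at 76.0% of the blank level. The mean was 1118 ± 79.3 (SD, n = 4) against 1468 ± 51.8 (SD, n = 3), and the log2 change was -0.40 (SE 0.079, 95% interval -0.57 to -0.22, limma adjusted p = 0.0084, exact permutation p = 0.029). This call held in all 15 alternatives, with limma adjusted p of 0.0019 to 0.027.

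The second Dcx probe set, 1418141_at, read 748, 810, 976 and 948 in luciferase arrays and 797, 879 and 850 in blank arrays. Here luciferase 3 and 4 lay above every blank array and luciferase 1 below, and the log2 change was 0.04 (95% interval -0.19 to 0.27, limma adjusted p = 0.8), turning to a small negative value under quantile normalization, under median centring and without luciferase 3 or 4 (down to -0.05). The 2 dim probe sets gave -0.08 (1418140_at, 0.02 without blank 6) and -0.18 (1448974_at), with 95% intervals that span 0. The last of these passed without blank 7 (-0.36, limma adjusted p = 0.015), but it reached the filter on level on no array but a blank one (54.39). Its luciferase arrays read 36.77 to 41.72, so the filter admitted it through the group in which it reads higher.

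Whether the probe sets of a gene changed differently was tested in limma on their per-array log2 differences, over all 8221 such pairs on the array, of which 3.38% passed. Of 21 pairs of the genes described here 0 passed, 5 had an unadjusted limma p under 0.05, and the lowest adjusted p was 0.073. That pair was 1418141_at against 1418139_at of Dcx, whose log2 changes differed by 0.44 (95% interval 0.17 to 0.70), and it passed without luciferase 1 (0.52, limma adjusted p = 0.0452) and with array weights (0.44, limma adjusted p = 0.0444). The drop of Dcx thus rests on the probe set with the highest level, and a difference between probe sets was not called.

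The Dcx promoter as annotated in RefSeq (GRCm38.p6, chrX:143933170-143933469, minus strand, 250 bases before to 50 after the start) is shown because Dcx gave the lowest log2 change of the 10 genes. Its annotated starts lie 95 bases apart, so the windows overlap. A match to TATAAA, the core of the TATA box, is in capitals at bases 153 to 158.
Dcx: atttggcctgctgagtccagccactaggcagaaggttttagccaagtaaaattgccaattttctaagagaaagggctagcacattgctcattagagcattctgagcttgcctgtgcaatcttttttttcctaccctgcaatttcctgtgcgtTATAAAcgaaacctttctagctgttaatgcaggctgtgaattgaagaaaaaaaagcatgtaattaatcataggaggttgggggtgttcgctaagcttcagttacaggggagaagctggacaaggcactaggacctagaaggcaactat

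Dclk1, a kinase with the tubulin-binding domains of doublecortin at one end of its long form, had 9 probe sets, and their log2 changes ran from -0.33 to 0.37. Of these, 2 passed as higher. The first, 1424271_at, read 744, 652, 765 and 750 in luciferase arrays and 648, 544 and 546 in blank arrays. The second, 1446190_at, a dim probe set, read 74.35, 80.6, 89.4 and 70.9 against 62.9, 60.7 and 62.0. In both, every luciferase array lay above every blank array, though luciferase 2 of the first exceeded blank 5 by little.

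The log2 change was 0.33 for 1424271_at (1.26-fold, SE 0.092, 95% interval 0.12 to 0.54, limma adjusted p = 0.030) and 0.34 for 1446190_at (1.27-fold, SE 0.09, 95% interval 0.14 to 0.54, limma adjusted p = 0.024), with an exact permutation p of 0.057 for each. Both calls depended on single arrays and on the scaling. The first was not past the test without luciferase 1, 3 or 4 or blank 6 or 7 (limma adjusted p between 0.056 and 0.10), without the filter on level (0.051), after quantile normalization (0.088) or with median centring (0.10). The second was not past the test without luciferase 2 or 3 or blank 5 or 6 (limma adjusted p between 0.051 and 0.072) or with median centring (0.079).

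The probe set with the highest Dclk1 level, 1435940_at, read 5373, 5716, 5894 and 5740 in luciferase arrays and 4957, 4863 and 5898 in blank arrays. Blank 7 lay above all luciferase arrays and the other blank arrays lay below all of them, and the log2 change was 0.12 (95% interval -0.07 to 0.32, limma adjusted p = 0.33). Of the rest, 4 gave changes of 0.16 to 0.37 and did not pass. The largest was on 1424270_at (0.37, limma adjusted p = 0.055, and 0.021 without blank 5). Every luciferase array lay above every blank array on 1436659_at (0.21, limma adjusted p = 0.058, exact permutation p = 0.029). The same held on 1423125_at (0.16, limma adjusted p = 0.18, exact permutation p = 0.114). The groups overlapped on 1424270_at and 1451289_at.

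The 2 probe sets with _a_at in the name, which can match several transcripts of 1 gene, gave negative changes. On 1450863_a_at luciferase arrays read 2033, 2260, 2259 and 2188 and blank arrays 2397, 2205 and 3143, a log2 change of -0.23 (95% interval -0.49 to 0.04, limma adjusted p = 0.18). It was -0.07 without blank 7, the highest array, and passed with median centring (-0.32, limma adjusted p = 0.045). On 1451917_a_at luciferase arrays read 274, 201, 183 and 191 and blank arrays 278, 258 and 255, a log2 change of -0.33 (95% interval -0.63 to -0.04, limma adjusted p = 0.093). Luciferase 1 alone lay among the blank arrays there, and without it the change was -0.46 (limma adjusted p = 0.0097).

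Set against 1435940_at within each array, 1450863_a_at was lower in luciferase neurons by a log2 difference of -0.35 (95% interval -0.56 to -0.14, limma adjusted p = 0.074, exact permutation p = 0.029) and 1451917_a_at by -0.45 (95% interval -0.84 to -0.07, limma adjusted p = 0.17). Neither passed. The first passed after quantile normalization (-0.39, limma adjusted p = 0.0478) and the second without luciferase 1 (-0.61, limma adjusted p = 0.0452).

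**Figure D3:**
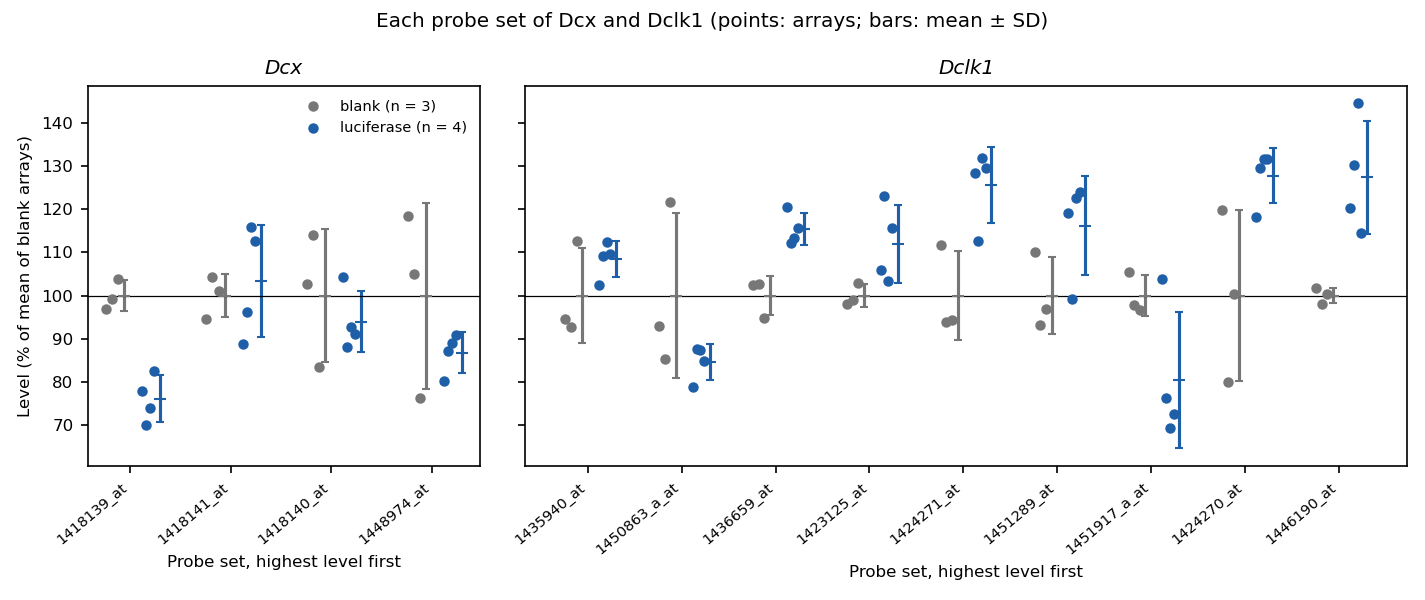
Level of each probe set of Dcx (left) and Dclk1 (right) relative to the blank mean (percent, 3 arrays) on the y axis, with the highest probe set first on the x axis (points are arrays, grey for blank and blue for luciferase, bars are mean ± SD). Only 1418139_at of Dcx separates the groups downward, and the Dclk1 probe sets lie on both sides of 100, with the _a_at ones below.

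RefSeq annotates 2 starts of Dclk1 in GRCm38.p6, 219364 bases apart on the plus strand of chromosome 3, and both windows are shown because the Dclk1 probe sets differed in sign. Which start a probe set reports was not analysed here. The window at chr3:55242114-55242413 holds none of the motifs searched. TGANTCA, with N for any base, is a loose form of the site bound by AP-1 factors. The window at chr3:55461478-55461777 holds 2 matches to TGANTCA, in capitals at bases 192 to 198 and 231 to 237.
Dclk1, first start: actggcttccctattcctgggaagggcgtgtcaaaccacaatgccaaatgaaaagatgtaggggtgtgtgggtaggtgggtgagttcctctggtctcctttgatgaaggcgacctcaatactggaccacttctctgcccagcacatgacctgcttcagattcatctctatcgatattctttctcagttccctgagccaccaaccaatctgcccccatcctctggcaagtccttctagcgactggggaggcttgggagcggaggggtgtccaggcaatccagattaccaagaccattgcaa
Dclk1, second start: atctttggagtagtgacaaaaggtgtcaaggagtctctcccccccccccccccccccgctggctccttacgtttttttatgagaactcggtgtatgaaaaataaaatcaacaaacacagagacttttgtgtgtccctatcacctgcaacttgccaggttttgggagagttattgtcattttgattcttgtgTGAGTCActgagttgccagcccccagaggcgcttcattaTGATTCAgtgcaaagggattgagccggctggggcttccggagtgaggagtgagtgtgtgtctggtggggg

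Motifs were searched on both strands. They were TATAAA (the TATA box core), the GC box core GGGCGG, the cAMP response element TGACGTCA and the loose AP-1 pattern TGANTCA. None of their matches in the sequences shown overlap. Of 32851 promoter windows of the same length, 13.62%, 35.66%, 1.79% and 7.808% hold these motifs in that order, and 0.4597% hold 2 or more TGANTCA. A match is a description of the letters and not a bound site. Windows were found for 5 of the 10 genes (Stmn3, Dclk1, Map1b, Map2 and Dcx).

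Of the classical MAPs, tau rose on 1 of 4 probe sets and Map2 on 1 of 4. The Map2 one is dim and entered the test only through its luciferase arrays, and the brightest Map2 probe set did not pass. For Mapt, 1424719_a_at, the probe set with the highest mean, read 6266, 7840, 7258 and 7249 in luciferase arrays and 6154, 5800 and 5487 in blank arrays. Every luciferase array lay above every blank array, though luciferase 1 lay close to blank 5. The mean was 7153 ± 653 (SD, n = 4) against 5814 ± 334 (SD, n = 3), and the log2 change was 0.30 (1.23-fold, SE 0.091, 95% interval 0.09 to 0.50, limma adjusted p = 0.041, exact permutation p = 0.057).

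The Mapt call was among the least stable. It was not past the test without luciferase 2, 3 or 4 or blank 5, 6 or 7 (limma adjusted p between 0.064 and 0.099), without the filter on level (0.07), after quantile normalization (0.053) or with median centring (0.15). The other 3 Mapt probe sets gave log2 changes of 0.23 (1424718_at), 0.12 (1455028_at) and 0.23 (1417885_at) and did not pass. On these blank 7 read 3633, 3574 and 719, inside the luciferase range of each, and blank 5 and 6 read at most 3021, 3031 and 528, below it. Without blank 7, 1424718_at (0.33, limma adjusted p = 0.019) and 1417885_at (0.39, limma adjusted p = 0.011) passed.

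Map2 had its call on its dimmest probe set, 1440699_at, near the filter of 50. It read 53.7, 67.9, 71.8 and 59.1 in luciferase arrays and 43.8, 43.65 and 48.2 in blank arrays, so that only the luciferase arrays exceeded 50. Every luciferase array lay above every blank array. The log2 change was 0.47 (1.39-fold, SE 0.11, 95% interval 0.23 to 0.71, limma adjusted p = 0.013, exact permutation p = 0.057). The probe set thus entered the test only through the group in which it reads higher, and a minimum of 100 on 1 array removes it. With all probe sets tested and no filter on level its limma adjusted p was 0.021.

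The probe set with the highest Map2 level did not pass. On 1434194_at luciferase arrays read 5415, 5249, 5905 and 5319 and blank arrays 4737, 4726 and 5972. Blank 7 was the highest of the 7 and the other blank arrays the lowest, and the log2 change was 0.10 (95% interval -0.12 to 0.32, limma adjusted p = 0.5). The remaining probe sets gave 0.09 (1421328_at, 95% interval -0.22 to 0.39, and below 0 with median centring, without luciferase 1 or without blank 7, down to -0.03) and 0.42 (1421327_at, 95% interval 0.04 to 0.79, limma adjusted p = 0.095). The log2 changes of 1440699_at and 1434194_at differed by 0.38 (95% interval 0.12 to 0.64, limma adjusted p = 0.10), which did not pass.

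The Map2 promoter in RefSeq (GRCm38.p6, chr1:66175079-66175378, plus strand) is shown for the gene of that dim probe set. It is rich in G and C (77.67%, beside a median of 52.67% over all windows), and 5 matches to GGGCGG are in capitals, a number reached or exceeded by 2.067% of windows.
Map2: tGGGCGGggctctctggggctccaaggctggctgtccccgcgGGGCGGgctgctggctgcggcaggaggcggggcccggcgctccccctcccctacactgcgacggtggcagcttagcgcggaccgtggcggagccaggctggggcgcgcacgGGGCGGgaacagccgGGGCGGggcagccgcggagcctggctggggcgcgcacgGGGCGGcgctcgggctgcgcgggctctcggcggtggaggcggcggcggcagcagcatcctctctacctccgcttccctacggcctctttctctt

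Map1b passed on none of its 3 probe sets, and its arrays were scattered. On 1450397_at luciferase arrays read 5300, 4865, 5153 and 7023 and blank arrays 4727, 4588 and 3747. The groups did not overlap, but luciferase 4 stood far above the other luciferase arrays and blank 7 far below the other blank arrays. The log2 change was 0.35 (SE 0.14, 95% interval 0.05 to 0.65, limma adjusted p = 0.086, exact permutation p = 0.057), and it was 0.24 without luciferase 4 and 0.25 without blank 7.

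The same 2 arrays were the extremes on the other Map1b probe sets. On 1421851_at luciferase 4 read 1026 and blank 7 read 596, and on 1421850_at 253 and 85.8. Their log2 changes were 0.21 (95% interval -0.12 to 0.54) and 0.42 (95% interval -0.17 to 1.01), and without blank 7 they were 0.01 and 0.07. All 11 probe sets of Map1b, Map2 and Mapt had a log2 change above 0, beside a median of 0.06 over all tested probe sets. Probe sets of 1 gene on the same arrays are not independent. Of the 11, 2 passed as higher, beside 16.2% of all tested. The Map2 one of these, 1440699_at, entered the test only through the luciferase arrays, in which it reads higher. With median centring 1 of the 11 read below 0.

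Gap43 differed little. Its probe set 1423537_at read 12377, 11811, 11160 and 11435 in luciferase arrays and 11323, 11417 and 11227 in blank arrays, with luciferase arrays on both sides of the blank ones. Its log2 change was 0.05 (95% interval -0.11 to 0.20, limma adjusted p = 0.65), and -0.05 with median centring. Beside all these values stand the higher astrocyte markers of the luciferase arrays and the neuron markers given above, and the part of the culture's cell makeup in the changes of the 10 genes was not tested.

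**Figure D4:**
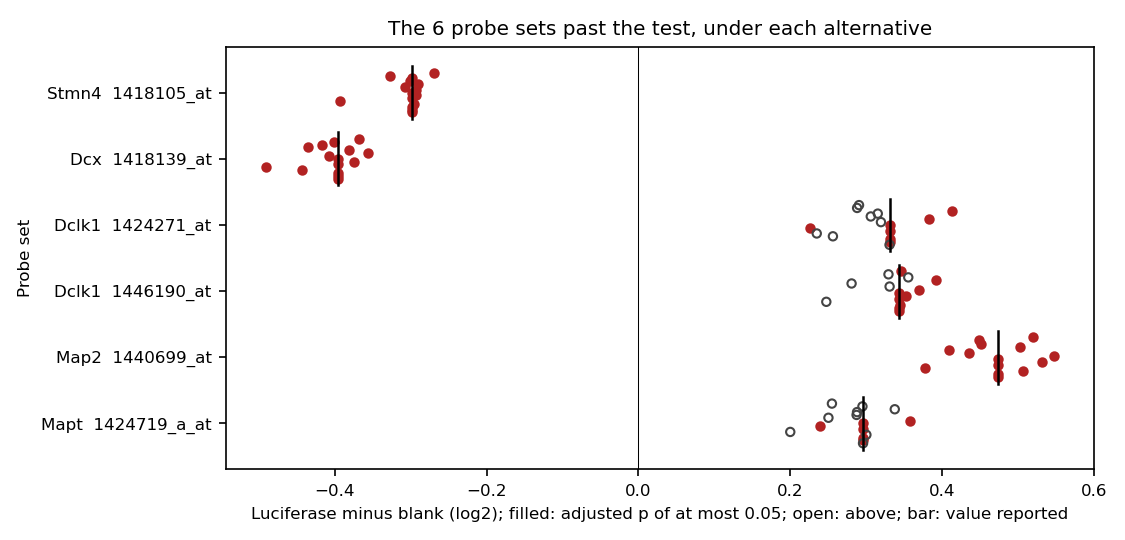
Log2 change of the 6 probe sets that passed (y axis) under each alternative setting in which they were tested (x axis, luciferase minus blank), filled red where the limma adjusted p was at most 0.05 and open where it was above, with the reported value as a bar. Stmn4 and Dcx 1418139_at stay filled throughout, as does the dim Map2 1440699_at, which the filter on level admits only through its luciferase arrays, while the Dclk1 and Mapt probe sets have open points.

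Genes that work with these 10 were followed in 6 lists. Of 130 tested genes, 12 rose and 19 fell (9.231% and 14.62%), beside 16.9% and 8.55% of all 12315 genes by their probe set with the highest mean, and the median log2 change was -0.05 beside 0.06. These are counts beside a background, with no test of the lists. Each related gene was judged on its probe set with the highest mean alone, and its other probe sets are not described. Under the median over a gene's probe sets, the median of the microtubule end and severing list turned from -0.045 to 0.074. That of the tubulins turned from -0.0035 to 0.038. The medians of the other lists stayed negative, at -0.047 (structural MAPs), -0.064 (folding and modification), -0.12 (kinases and phosphatases) and -0.0069 (growth cone).

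Other structural MAPs held the largest changes, with 5 higher and 5 lower of 21. Dclk3, a kinase relative of Dclk1, rose 2.27-fold, from 81.5, 86.3 and 80.2 in blank arrays to 190.4, 200.5, 182.9 and 175.8 in luciferase arrays (log2 change 1.18, SE 0.075, limma adjusted p = 6.6e-05). Tppp3, of the tubulin polymerization promoting family, rose 1.71-fold (log2 change 0.78, limma adjusted p = 0.0007), and Mtus1, a microtubule-associated scaffold, rose 1.42-fold (log2 change 0.51, limma adjusted p = 0.01). The EMAP-like proteins Eml2 (log2 change -0.95, limma adjusted p = 0.036) and Eml5 (-0.46, limma adjusted p = 0.015) and the spindle-associated Map9 (-0.40, limma adjusted p = 0.03) fell. The Eml2 arrays overlapped, with luciferase 1 at 863 and blank 5 at 723. Eml2 was not past the test without luciferase 2, 3 or 4 or blank 6 or 7 or with a trended, robust variance (limma adjusted p up to 0.095), nor was Map9 without luciferase 1 or 2 or blank 5 or 7 (up to 0.069).

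The doublecortin family thus held a member that rose by more than 1.5-fold (Dclk3), one with a lower leading probe set (Dcx) and one with probe sets on both sides of 0 (Dclk1). Dclk2, the remaining member tested, is named after its values were seen. It read 294, 313, 299 and 278 in luciferase arrays and 246, 221 and 329 in blank arrays (log2 change 0.18, limma adjusted p = 0.32). The change was 0.06 without blank 6, and it passed without blank 7 (0.35, limma adjusted p = 0.016) and with array weights (0.28, limma adjusted p = 0.02).

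Of the tubulins and the factors that nucleate them, 2 rose and 1 fell of 17. The list held 22 genes, and the alpha-tubulins Tuba1a, Tuba1b and Tuba1c were among those not tested. The subunits of the gamma-tubulin ring complex Tubgcp2 (log2 change 0.33, limma adjusted p = 0.011) and Tubgcp5 (0.30, limma adjusted p = 0.025), which nucleates microtubules, rose, and Tubg2, a gamma-tubulin, fell (-0.29, limma adjusted p = 0.021). Tubgcp5 was not past the test without luciferase 1 or blank 5 or 6, after quantile normalization or with median centring (limma adjusted p up to 0.092), nor was Tubg2 without luciferase 4 (0.052).

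Among factors of tubulin folding and modification 0 rose and 3 fell of 20 in limma, beside 2 higher and 7 lower at an unadjusted p under 0.05. Ttll1, a subunit of a tubulin polyglutamylase, read 423, 464, 426 and 500.2 in luciferase arrays and 875, 806 and 878 in blank arrays (log2 change -0.91, limma adjusted p = 0.0003). Atat1, the alpha-tubulin acetyltransferase, read 575, 590, 622 and 579 against 899, 987 and 961 (-0.68, limma adjusted p = 0.00055). Every luciferase array of both lay far below every blank array. Ttll11, another polyglutamylase, fell by 0.28 on the log2 scale (limma adjusted p = 0.019, and up to 0.052 without luciferase 2 or blank 6). With median centring the number lower in this list was 8.

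Of the proteins that bind microtubule ends or sever microtubules, 1 rose and 3 fell of 25. Mapre3 (EB3, a plus end tracking protein of neurons) fell by 0.68 (limma adjusted p = 0.0054), Macf1, a giant linker of actin and microtubules, fell by 0.62 (limma adjusted p = 0.0021) and Clip1, a plus end protein, fell by 0.24 (limma adjusted p = 0.035), all on the log2 scale. Clip4 rose (log2 change 0.40, limma adjusted p = 0.013). The Clip1 call was lost without any 1 of luciferase 1 to 4, without blank 5 or 6 and without the filter on level (limma adjusted p up to 0.12).

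Among kinases and phosphatases that act on these proteins, 3 rose and 3 fell of 25. Uhmk1, a kinase that phosphorylates stathmin, rose (log2 change 0.48, limma adjusted p = 0.0042), as did Cdk5r1, the activator of the tau kinase Cdk5 (0.35, limma adjusted p = 0.036), and Ppp2r2c, a regulatory subunit of phosphatase PP2A (0.32, limma adjusted p = 0.025). Mark3, a kinase that detaches MAPs from microtubules, fell (-0.45, limma adjusted p = 0.0086), as did the PP2A subunit Ppp2r2b (-0.27, limma adjusted p = 0.025) and Camk4, a calcium-dependent kinase that phosphorylates stathmin (-0.27, limma adjusted p = 0.022). The Uhmk1 and Mark3 calls held in all 15 alternatives. The others were lost when single arrays were left out: Cdk5r1 and Ppp2r2b without luciferase 2, 3 or 4 or blank 5 or 6 (limma adjusted p up to 0.12 and 0.083), Ppp2r2c without luciferase 2 or 4 or blank 5 or 6 (up to 0.088) and Camk4 without luciferase 1, 2 or 3 or blank 5 (up to 0.069). Without the filter on level Cdk5r1, Ppp2r2b and Camk4 did not pass either, nor did Cdk5r1 with median centring.

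Growth cone partners held 1 higher and 4 lower of 22. Nrep, a protein of regenerating neurons, read 3398, 3480, 3838 and 3892 in luciferase arrays and 5133, 5601 and 5841 in blank arrays (log2 change -0.60, limma adjusted p = 0.0019). The groups lay far apart. Cap2, an actin regulator, fell (-0.58, limma adjusted p = 0.015), as did Ndel1 (-0.49, limma adjusted p = 0.0026), while its relative Nde1 rose (0.41, limma adjusted p = 0.018), both partners of dynein. The Nde1 call was lost without blank 6 and with median centring (limma adjusted p up to 0.064).

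**Figure D5:**
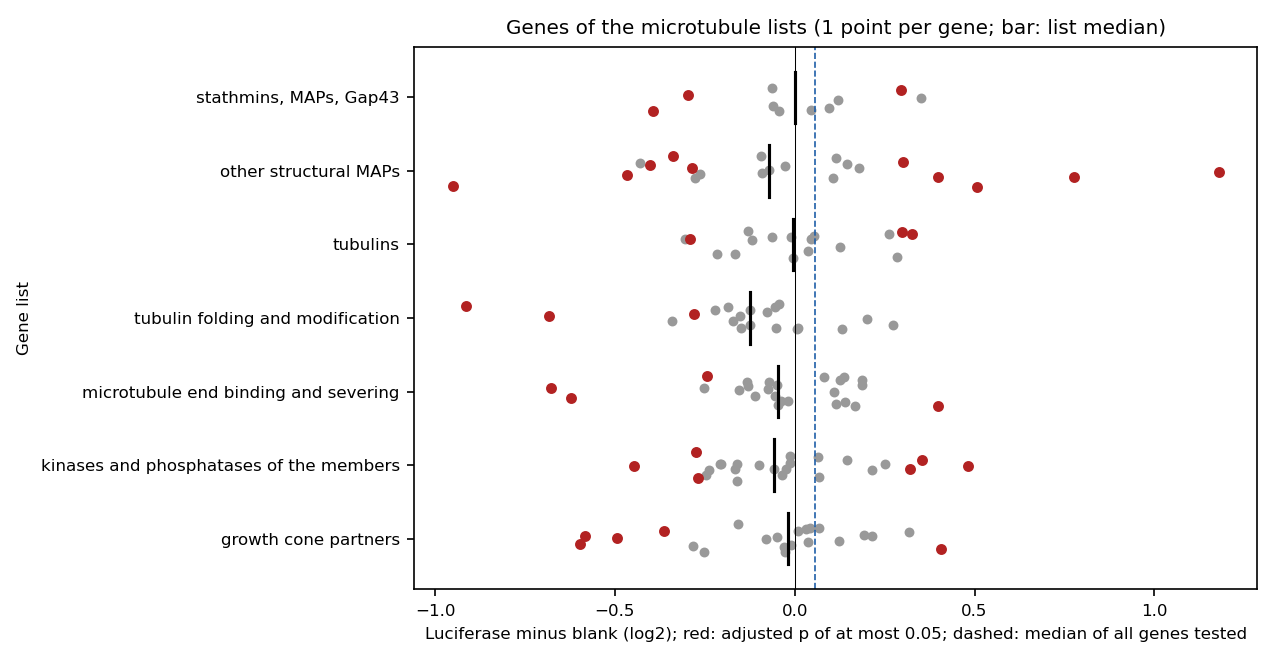
Log2 change (x axis, luciferase minus blank) of each gene's probe set with the highest mean level in the 10 genes and in the 6 related lists (y axis), 1 point per gene, red where the limma adjusted p was at most 0.05, with the list median as a black bar and the median of all genes tested as a dashed line. The 10 genes lie between -0.40 and 0.35, and the points farthest out are Dclk3 at 1.18, Eml2 at -0.95 and Ttll1 at -0.91.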

How the data were processed

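Total RNA from 4 luciferase and 3 blank cultures of mouse cortical neurons was hybridised to Affymetrix Mouse 430_2 arrays, and samples were grouped by the treatment label. The deposited values are linear intensity after RMA normalization by the authors and run from 4.69 to 23763. The sources used here give no version of RMA. Precision is set by the number of arrays. The sample labels name Trizol and the methods an RNeasy kit. A further blank sample was dropped by the authors at quality control. Scan dates and batches are not given in the sources used here. The blank columns sit 1 row low and were moved up by 1 row. The log2 group means then correlated at r = 0.9953 over 45037 probe sets, and at most at 0.4211 with other moves. The table held 0 columns of other samples.

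Of 45101 probe sets, 64 controls and 2441 with _x in the name were left out, and 22748 of the rest were kept for a level of 50 on 1 or more arrays. The platform annotation gives 1 gene for 20536 of these, several for 451 and no gene for 1761. The log2 intensities were fitted without covariates in R 4.3.3 by lmFit and eBayes of limma 3.58.1, and p-values were adjusted by Benjamini-Hochberg across the 22748. The threshold was an adjusted p of at most 0.05, and a call in the text means a result past it. Results that also reached a 1.5-fold change were counted apart. Pairs of probe sets of 1 gene were tested the same way, over 8221 pairs, and single values also by exact permutation. Alternatives changed the level filter, the scaling between arrays, the variance model, array weights or the _x rule, or left out 1 array. Calculations were tested on simulated data.

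Named are all 10 members, up to 3 genes higher and 3 lower per related list by size among those past the test, the 3 genes closest to Map2 1440699_at by correlation, and the defining cell type markers. Dclk2 and Mag were added after their values were seen, beside the vascular and meningeal genes so marked above. The members and lists were chosen with earlier results of these data known. Lists cover other structural MAPs, tubulins, tubulin folding and modification, microtubule ends and severing, kinases and phosphatases, growth cone partners, and markers of neurons, of progenitors, of vascular and meningeal cells and of the 3 kinds of glia (astrocytes, microglia, oligodendrocyte lineage). Promoters come from RefSeq (GRCm38.p6).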

Additional observations from a re-analysis of the deposited data

Results flagged for a closer look

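For Dclk1 1424270_at, luciferase 1 read 141.22 and stood apart from the other luciferase arrays (154.75, 157.2 and 157.07), with a gap of 0.8467 of the group's range. Chance gives such a gap in about 1 of 20 groups of this size, and 31 groups of luciferase arrays were examined. Without luciferase 1 the log2 change of this probe set was 0.41 (limma adjusted p = 0.07), beside 0.37 (limma adjusted p = 0.055).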

How the results depend on the processing

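Stmn4 1418105_at and Dcx 1418139_at passed in every limma alternative. Map2 1440699_at passed in the 14 that kept it, but reached 50 in luciferase arrays only, so that its place in the test depends on the group in which it is high. The other 3 calls did not hold throughout. Of 26 named genes of the related lists 15 passed in every alternative and 11 did not. Beside 4 probe sets of the 10 genes higher and 2 lower, there were 2 higher without the filter on level, 2 higher after quantile normalization, 1 higher and 4 lower with median centring, 10 higher and 4 lower with array weights, and 1 to 4 higher and 2 to 3 lower when single arrays were left out. The count higher was 1 without luciferase 3, 1 without blank 6, and 2 without luciferase 2 or luciferase 4. Pairs of probe sets that passed numbered 0, but 1 after quantile normalization, 1 with array weights and 0 to 2 with single arrays left out (2 without luciferase 1). Genes of the related lists numbered 12 higher and 19 lower, but 37 lower with median centring, 25 higher with array weights, and 7 to 22 higher and 12 to 15 lower with single arrays left out (7 higher without blank 6, 22 higher without blank 7, 12 lower without blank 5). Of all tested probe sets 3688 were higher and 1880 lower, but 2069 and 3472 with median centring, 6278 and 3272 with array weights, and 2022 to 4879 and 1158 to 2176 with single arrays left out, lowest without blank 6 and blank 5 and highest without blank 7. Small changes turned in sign: Dcx 1418141_at was -0.022 after quantile normalization and -0.055 with median centring, where Map2 1421328_at was -0.011 and Gap43 -0.050. With single arrays left out, log2 changes ran from -0.13 to 0.052 for Stmn1 1448113_at, -0.049 to 0.015 for Stmn2 1423281_at, -0.017 to 0.11 for Dcx 1418141_at, -0.21 to 0.020 for Dcx 1418140_at and -0.026 to 0.17 for Map2 1421328_at. The causes were not tested. No paired analysis was possible because the luciferase and blank samples share no replicate number. The interval was widest for Map1b 1421850_at (SE 0.26), with bounds of -0.17 and 1.01 on the log2 scale.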

Other observations

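The Stmn3 probe set with _x in its name, 1435113_x_at, which can match sequences of other genes and was left out, read 13297, 13735, 13515 and 13124 in luciferase arrays and 14433, 14320 and 13688 in blank arrays. With such probe sets kept, its log2 change was -0.08 (limma adjusted p = 0.42), as small as that of the Stmn3 probe set described.

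The genes whose log2 values ran most like those of Map2 1440699_at over the 7 arrays were Nhlrc2 (Pearson r = 0.998), Mipol1 (0.986) and Plec (0.985). The 7 arrays form 2 groups that differ in Map2, so that any gene with a like group difference scores high, and these values are a description. The log2 change was 0.33 for Nhlrc2, 0.42 for Mipol1 and 0.22 for Plec.

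Among the markers of other cells, Mbp, a myelin protein, was at 506.53 to 586.4 in luciferase arrays and 375.64 to 462.35 in blank arrays (log2 change 0.39, limma adjusted p = 0.015). Of 10 tested oligodendrocyte lineage genes 1 passed as higher and 1 as lower. The lower gene, named after its values were seen, was Mag, at 36.26 to 49.08 in luciferase and 51.26 to 67.07 in blank arrays. Its blank arrays alone reached the filter on level, so the filter admitted it through the group in which it reads higher. Of 7 vascular and meningeal genes 1 passed as higher and 3 as lower. Of 10 progenitor and proliferation genes 3 passed as higher and 0 as lower (4 and 0 at an unadjusted limma p under 0.05). Of 2 microglial genes 0 passed in either direction (0 and 1).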
